A study of Ovis aries with 7 samples.

Results

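The expressed regions of the major histocompatibility window on sheep chromosome 20 were compared in the tail fat of lambs of the thin-tailed Zel and the fat-tailed Ghezel breeds. The window held every row of the deposited expression tables that lay between 25 and 30 Mb of chromosome 20. Rows that overlapped in any library were merged, which gave 157 regions in the window, 585 in the rest of chromosome 20 and 29954 in all. The regions were numbered R1 to R157 along the chromosome, and their positions are those of the tables, whose build the labels give as Oar_v3.1. The sequenced RNA was polyadenylated RNA from the tail fat of 4 Zel and 3 Ghezel lambs, with 1 library per lamb. All were untreated males reared on the same diet in individual pens and slaughtered at 7 months, so breed was the only labelled difference. Tail fat is a mixed tissue, and fewer cells of a type and less RNA per cell cannot be told apart in it. The labels do not give sires or litters, and p-values measure the spread between these 7 lambs only.

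The major histocompatibility complex is the gene-dense part of the genome that encodes the class I and class II molecules. Class I molecules display peptides from inside the cell on nearly all nucleated cells, and class II molecules display peptides taken up by macrophages, dendritic cells and B cells. Between them lies the class III part, which holds complement components, cytokines of the tumour necrosis factor family and many genes that every cell uses. Adipose tissue contains resident macrophages and lymphocytes besides adipocytes, and adipocytes carry class I molecules too. In sheep a piece of the class II part lies apart from the rest, elsewhere on the same chromosome. The rest of chromosome 20, set beside the window below, may therefore hold genes of the complex too.

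The tables paired 0 of their rows with a gene symbol, and 0 of the 19205 reference IDs in the series matched the gene table at hand. The name of the window therefore rests on its position, and neither its genes nor the markers of adipocytes, macrophages, T cells, B cells, endothelium or skeletal muscle were checked here. Regions are given by position and by the ENSOARG IDs they hold. The values of a region cover all its rows and are not values of an ID it holds. Genes of this complex occur in near-identical and highly polymorphic copies. How fragments that match several copies were shared out is not stated in the labels or the methods, and their part in the values was not tested.

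Of the 157 regions, 116 were above 0 in 1 library or more, 62 were above 0 in all 7, and 41 were at 0 throughout. The median region spanned 2368 bases, against 7233 bases in the rest of chromosome 20, and the longest spanned 414255 bases. The window held 168 reference IDs in 117 regions, and 93 of these IDs were at 0 wherever they were listed. Of those 93, 44 lay inside a region that did have fragments in other rows. A reference ID listed at 0 in these tables was therefore no sure sign that its region was silent, and the region, not the ID, was used as the unit.

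The level of a region was the sum of the fragments implied by the FPKM of its rows and their confidence intervals, per 1000000 implied fragments of the library (FPM). FPM does not correct for length, so levels of different regions are given as amounts of implied fragments, which are not read counts. They need not follow FPKM. In R34, Zel 1 and Zel 2 both had 32.7 implied fragments, in rows of 1145 and 1111 bases, but an FPKM of 41.8 and 116. A total of 7308112 to 7827375 fragments was implied per library, and a region at 0 may hold up to 0.383 to 0.411 FPM by counting error alone. The libraries differed in how finely transcripts were assembled. The median span of an assembled row was 963 bases in Zel 3, 1409 in Zel 4 and 3641 in Ghezel 3, and 5400 to 8935 bases in the other 4 libraries. These 3 libraries of the shortest rows come from both breeds, and the main results without them are given as well. Where the values of single libraries are listed, they follow the order Zel 1 to 4 and then Ghezel 1 to 3.

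The share of the fragments that came from the window overlapped between the breeds. Its share of all implied fragments was 0.707%, 0.762%, 0.768% and 0.781% among the Zel lambs against 0.732%, 0.667% and 0.772% among the Ghezel lambs. The breeds overlapped, with Ghezel 2 lowest of the 7. The mean was 0.754% ± 0.0326 (SD, n = 4) among Zel lambs and 0.723% ± 0.0528 (SD, n = 3) among Ghezel lambs, a difference of 0.0310 percentage points (exact permutation test over 35 splits, two-sided, p = 0.4). The smallest p this test allows is 0.0286. Without Ghezel 2 the difference was 0.00275 percentage points, and without Ghezel 3 it was 0.0550. Within the 4 libraries whose tables carry T-suffixed names it was -0.0197, so the direction was not stable.

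Of the fragments of chromosome 20, the window held 30.8%, 31.0%, 25.3% and 30.2% among the Zel lambs against 31.4%, 30.3% and 30.6% among the Ghezel lambs. In 6 of the 7 libraries the share lay between 30.2% and 31.4%, and Zel 3 lay below them. The means were 29.3% ± 2.68 (SD, n = 4) among Zel lambs and 30.7% ± 0.563 (SD, n = 3) among Ghezel lambs (exact permutation test, two-sided, p = 0.629). Without Zel 3 the difference was -0.0653 in place of -1.39 percentage points. A single region outside the window moved with this value. It lay at chr20:7544309-7549025 and gave 3201 FPM in Zel 3 against 263 to 680.2 FPM in the other libraries. When it was left out of chromosome 20, the share of Zel 3 was 28.3% and the difference between the breeds was -0.607 percentage points (exact permutation test, two-sided, p = 0.771).

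**Figure D1:**
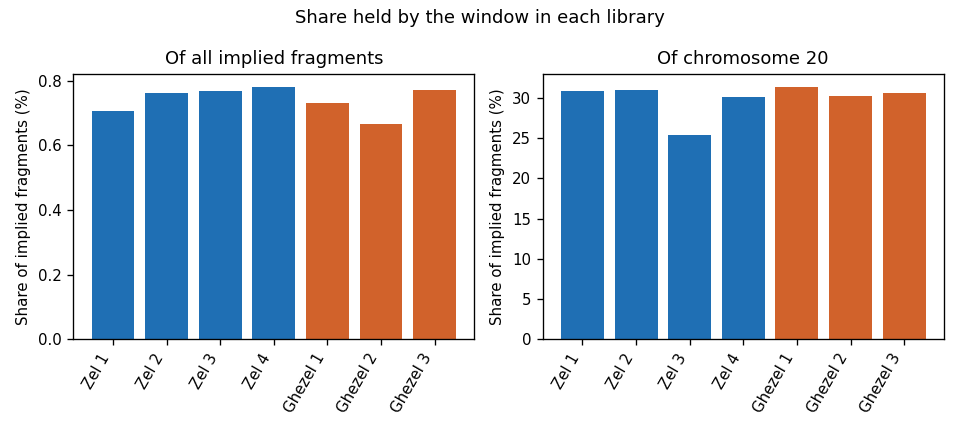
Share of implied fragments (%) held by the window in each of the 7 libraries, of all fragments (left) and of those of chromosome 20 (right), with Zel in blue and Ghezel in orange. Each bar is 1 lamb, and the shares lie between 0.667% and 0.781% on the left and between 25.3% and 31.4% on the right.

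Among regions at or above 1 FPM, those of the window had the higher level, but fewer of its regions were that high. A region was tested when its mean was at least 1 FPM, which kept 64 regions of the window (40.8%), 301 of the rest of chromosome 20 (51.5%) and 15028 in all. Regions above 0 in some library made up 73.9% of the window and 80.0% of the rest. The median log2(FPM + 0.5) over the tested regions was 6.05, 5.49, 5.43 and 5.61 among the Zel lambs against 5.55, 5.61 and 5.71 among the Ghezel lambs. In the rest of chromosome 20 it was 4.66, 4.54, 4.10 and 4.32 in Zel and 4.29, 4.34 and 4.57 in Ghezel. The highest library of the rest lay below the lowest library of the window. The difference averaged 1.23 ± 0.149 on the log2 scale (SD, n = 7) and was positive in 7 of 7 libraries (exact sign-flip test, two-sided, p = 0.0156, the smallest it can give). The 7 libraries share the same regions, so this p measures only the agreement between lambs. No other window of the same length was compared. With FPKM, which corrects for length, the window lay above the rest by 0.712 to 1.59 on the log2 scale (exact sign-flip test, n = 7, p = 0.0156). When only rows with reference IDs were used it was 0.861 and no longer passed (exact sign-flip test, p = 0.0625). The direction turned when the filter was dropped, an alternative added after seeing the data. Over all regions above 0 in some library, 116 in the window and 468 in the rest, the difference of the medians averaged -0.18 ± 0.25 on the log2 scale (SD, n = 7, exact sign-flip test, p = 0.0781). With the regions at 0 included it averaged -0.95 ± 0.82 (SD, n = 7, exact sign-flip test, p = 0.0156). In that setting the window medians ran from -1, which stands for 0 FPM, in Zel 3 and Zel 4 to -0.177 in Ghezel 3. The difference in Ghezel 2 was -2.07e-06, so this p counts a difference of about 0 as negative. The higher level of the window therefore holds for its tested regions and not for the window as a whole.

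The share of regions of low FPKM was smaller in the window than in the rest of chromosome 20 in 7 of 7 libraries. Among window regions above 0, 46.2% to 57.0% per library had an FPKM of at most 10, against 55.6% to 68.7% in the rest of chromosome 20. Of the tested regions, 3 of 64 (4.69%) were at 0 in some library in the window and 60 of 301 (19.9%) in the rest. The class of over 500 FPKM held 0 to 4 window regions per library, and the 3 libraries of the shortest rows had 3 or 4 while the others had 0 or 1.

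The fragments were gathered in the first part of the window. The interval from 26 to 27 Mb gave 46.9% of them, the one from 27 to 28 Mb 28.8% and the one from 25 to 26 Mb 16.1%. The interval from 28 to 29 Mb gave 1.81% and the last 6.46%. Summed levels did not separate the breeds in any of these 5 intervals. The lowest exact permutation p was 0.171, at 28 to 29 Mb, where Zel had 149 ± 25.9 FPM (SD, n = 4) and Ghezel 115 ± 30.8 FPM (SD, n = 3), and its Benjamini-Hochberg adjusted value over the 5 intervals was 0.714.

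The 15 regions with the highest mean level held 70.8% of the fragments of the window, with a range of 65.6% to 76.7% over the libraries. Of the 15, 7 had the higher mean in Zel and 8 in Ghezel, and 0 were called between the breeds, beside 0.0% of all 15028 regions tested. A region was called in limma when its adjusted p was below 0.05 and the size of its log2 fold change above 1.1. The values are therefore given as levels and not as changes.

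The highest was R20 (chr20:26355371-26537589, IDs ENSOARG00000000847 and ENSOARG00000001720). It gave 734, 732, 1097 and 1095 FPM among the Zel lambs against 857, 593 and 737 FPM among the Ghezel lambs. The breeds overlapped, and Zel 3 and Zel 4 were the highest. The log2 fold change of Zel over Ghezel was 0.31 with an SE of 0.32 (limma, Benjamini-Hochberg adjusted p = 0.843). R20 was assembled as 12 to 17 rows per library, and its leading row had an FPKM of 36.1 to 133.

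The next was R53 (chr20:26885949-27141898), a stretch of 255950 bases that holds 14 reference IDs, more than any other of the 15. It gave 463, 481, 395 and 519.9 FPM among the Zel lambs against 588, 642 and 537 FPM among the Ghezel lambs. All Zel libraries lay below all Ghezel libraries. The log2 fold change was -0.34 with an SE of 0.27 and did not pass (limma, adjusted p = 0.823, and exact permutation test, two-sided, p = 0.0571). The FPKM of its leading row was 104, 88.1, 62.2 and 455 in Zel and 68.8, 98.5 and 109 in Ghezel. By that measure the breeds overlapped, the scaled mean was higher in Zel (153 against 103), and the leading row spanned from 7747 to 48740 bases depending on the library.

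R14 (chr20:25939960-25940307) was the shortest of the 15, a single row of 348 bases in all 7 tables. It carried the reference ID ENSOARG00000008765 in 6 of them and an ID of the library's own in Zel 1. It gave 275, 163, 1065 and 1040.4 FPM among the Zel lambs against 119.6, 99.2 and 643 FPM among the Ghezel lambs. The 3 high libraries were Zel 3, Zel 4 and Ghezel 3, those of the shortest rows, and the other 4 did not overlap with them. Its FPKM of 293 to 3184 followed the same order except that Zel 4 stood above Zel 3. Between the breeds its log2 fold change was 1.26 with an SE of 0.81 (limma, adjusted p = 0.823).

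R76 (chr20:27596843-27769637, ENSOARG00000014493 and ENSOARG00000025162) gave 323, 716, 570.3 and 401 FPM in Zel and 429, 287 and 424 FPM in Ghezel. ENSOARG00000014493 itself held at most 8 implied fragments in a library, and ENSOARG00000025162 was at 0 in all 7. R65 (chr20:27352469-27367922, ENSOARG00000011626) gave 630.2, 393, 309.9 and 321 FPM in Zel and 523, 476 and 414 FPM in Ghezel. R19 (chr20:26237128-26354399, with ENSOARG00000000135 and 2 other IDs) gave 322, 455, 257 and 225 FPM in Zel and 291, 226 and 339 FPM in Ghezel. In each of these 3 regions the highest library was a Zel library, and the Ghezel libraries lay within or just below the Zel range.

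R69 (chr20:27415036-27500789, ENSOARG00000012647) gave 231 to 317 FPM in Zel and 233 to 417 FPM in Ghezel. R38 (chr20:26713378-26722907), which holds no reference ID, gave 128 to 395 FPM in Zel and 196 to 411 FPM in Ghezel. R46 (chr20:26780051-26795284), also without a reference ID, gave 329, 310.4, 137 and 145 FPM in Zel and 393, 341 and 222 FPM in Ghezel. In R46 the low libraries were Zel 3, Zel 4 and Ghezel 3, the opposite order to R14. Its log2 fold change between the breeds was -0.54 with an SE of 0.40 (limma, adjusted p = 0.823).

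R12 (chr20:25687644-25888178, 5 reference IDs) lay between 185 and 295 FPM in all 7 libraries. R74 (chr20:27544778-27580663, ENSOARG00000013856) had the higher mean in Zel, 288 ± 117 FPM (SD, n = 4) against 196 ± 49.8 FPM (SD, n = 3), with overlapping libraries (exact permutation test, two-sided, p = 0.286). R111 (chr20:29179938-29180801) was a single row of 864 bases under ENSOARG00000017508 and lay between 152 and 302 FPM. It was the only one of the 15 beyond 28 Mb.

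The last of the 15 were among the most even. R44 (chr20:26766625-26776304, no reference ID) gave 166 to 290.3 FPM, and R30 (chr20:26648882-26666863, ENSOARG00000008834) gave 153 to 253 FPM. R21 (chr20:26537653-26587482, no reference ID) gave 174 to 265 FPM, and its breed means were 211 ± 40.9 FPM among Zel lambs (SD, n = 4) and 206 ± 31.7 FPM among Ghezel lambs (SD, n = 3). Its log2 fold change was 0.03 with an SE of 0.28. Exact permutation p-values of the 15 ran from 0.0571 to 1.

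**Figure D2:**
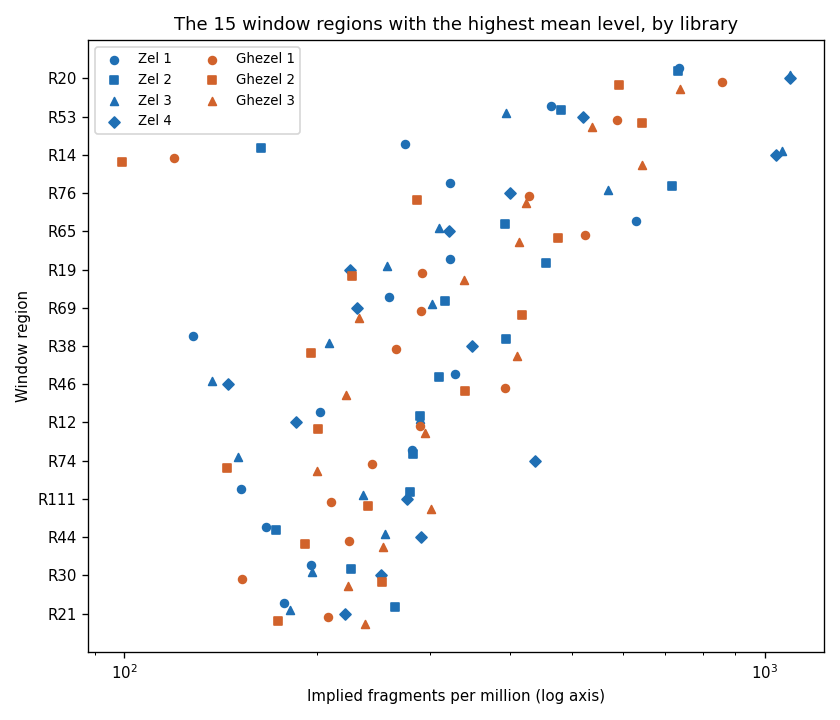
Level in FPM (log axis) of the 15 window regions with the highest mean, 1 point per library, Zel in blue and Ghezel in orange, with the marker giving the replicate number. R14 spreads from 99.2 to 1065 with Zel 3, Zel 4 and Ghezel 3 at the top, while R21 stays between 174 and 265.

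No region of the window was called between the breeds. In limma, 0 of 64 window regions passed, as did 0.0% of all regions tested and 0 of the 301 in the rest of chromosome 20. The lowest adjusted p in the window was 0.823. At an unadjusted p under 0.05 there was 1 window region (1.56%), lower in Zel, beside 4.92% of all regions in either direction, 2.35% lower in Zel and 2.57% higher in Zel. The median log2 fold change of the 64 was -0.01, with 32 higher and 32 lower in Zel, and it was -0.01 in the rest of chromosome 20 and -0.02 over all regions. The single values ran from -2.78 to 1.46, with 3 above 1 and 7 below -1, and their SE from 0.27 to 1.59 with a median of 0.43. Changes within 1.1 cannot be called by this rule. With SEs of that size, changes beyond 1.1, as far as -2.78, did not pass either. The absence of calls therefore does not show that the breeds were alike.

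By FPKM, 0 of 69 window regions were called, beside 0.0405% of all 14798. At an unadjusted p under 0.05 there were 3, all lower in Zel, beside 4.85% of all regions in either direction and 2.49% in that direction (2.35% in the other). They were R62, R149 and R155, with log2 fold changes of -1.56, -1.01 and -1.39 and an adjusted p of 0.737 each (limma). R155 was too low to be tested by FPM, and its ID ENSOARG00000020031 held 0 to 9.59 implied fragments per library. The count depended on the libraries. Without the 3 libraries of the shortest rows, 6 window regions were higher and 5 lower in Zel by FPKM at an unadjusted p under 0.05 (15.9% of 69, beside 11.3% of all regions), and 3 were higher and 3 lower by FPM (9.38% of 64, beside 10.9%), again with 0 called. The median of the 69 with all libraries was 0.03, against 0.10 in the rest of chromosome 20 and 0.08 over all regions. When limma was given a weight for each library, 14 of the 64 regions passed by FPM, 5 higher and 9 lower in Zel, but so did 25.6% of all regions.

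**Figure D3:**
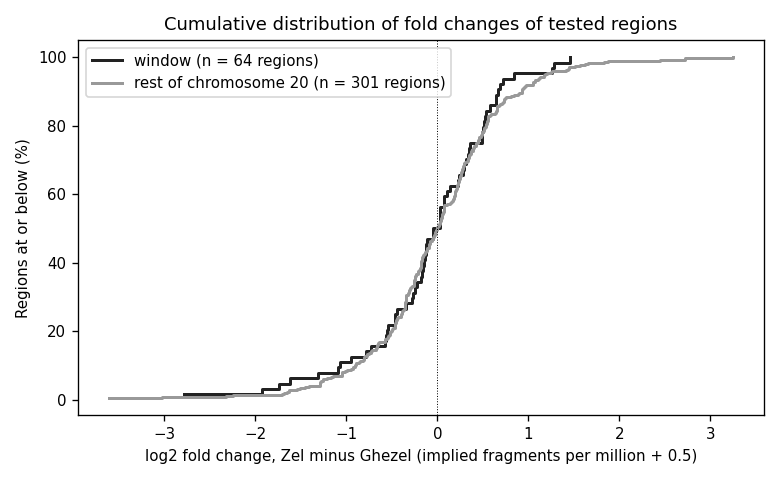
Cumulative share of regions (%) against the log2 fold change of Zel minus Ghezel in FPM, for the 64 tested regions of the window (black) and the 301 of the rest of chromosome 20 (grey). Both curves cross the middle near 0, with medians of -0.01.

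In 4 of the 64 regions (6.25%) the Zel and Ghezel libraries did not overlap, beside 5.1% of all regions tested and 2.99% of the rest of chromosome 20. All 4 were lower in Zel, a direction that held for 2.72% of all regions, while 2.38% lay higher in Zel. R53, described above, was the highest of them.

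R42 (chr20:26737689-26757404, ENSOARG00000006545) gave 81.6, 81.4, 42.6 and 69.5 FPM among the Zel lambs against 112, 98.8 and 121 FPM among the Ghezel lambs. The ID itself was at 0 in all 7 libraries, so these fragments came from other rows of the region. Zel 3 was the lowest, and the gap between the nearest libraries of the breeds was 81.6 to 98.8 FPM. The Ghezel mean was 1.61 times the Zel mean, with a log2 fold change of -0.72 and an SE of 0.32 (limma, unadjusted p = 0.0455, adjusted p = 0.823). The exact permutation test gave p = 0.0286, the smallest it can give, not adjusted for the number of regions. R42 was named because its breeds did not overlap, which alone puts this p at or near its floor. Without Zel 3 the log2 fold change was -0.51, and without the 3 libraries of the shortest rows it was -0.37 (limma, adjusted p = 0.482). Its FPKM of 26.1, 21.2, 9.38 and 26.2 in Zel and 30.9, 32.6 and 37.7 in Ghezel did not overlap either, and the assembled row had nearly the same span in all 7 tables.

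R27 (chr20:26622199-26626243, no reference ID) gave 25.8, 22.7, 18.6 and 16.6 FPM in Zel and 29.3, 36.3 and 27.9 FPM in Ghezel. Its log2 fold change was -0.57 with an SE of 0.36 (limma, adjusted p = 0.823). R60 (chr20:27209634-27222943, ENSOARG00000010844) gave 19.1, 24.8, 9.22 and 20.3 FPM in Zel and 28.8, 36.1 and 26.3 FPM in Ghezel. Its log2 fold change was -0.78 with an SE of 0.44, and -0.49 without Zel 3 (limma, adjusted p = 0.823 with all libraries). By FPKM both regions overlapped between the breeds, since Zel 3 reached 17.5 in R27 and Zel 4 reached 4.13 in R60. By FPM, R42, R27, R60 and R53 were lower in Zel under each of the 16 alternatives run for them. Their breeds did not overlap, so leaving out a library could not turn the direction and adds no support.

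Levels also varied within each breed. The SD of log2 levels within breeds had a median of 0.574 over the 64 window regions, against 0.783 in the rest of chromosome 20 and 0.736 over all regions. It was under 0.5 in 26 window regions and over 1 in 13. The tested window regions were also higher, with a median mean level of 53.0 FPM against 22.9 in the rest of chromosome 20 and 23.4 over all regions. Fewer of them were at 0 in some library (4.69% against 19.9% and 22.3%). Whether the smaller spread goes with the level was not tested. Among the regions of the widest spread, chosen after their values were seen, was R32 (chr20:26673437-26680831, ENSOARG00000004625). It gave 52.3, 33.7, 0.130 and 0.640 FPM in Zel and 80.3, 89.7 and 9.14 FPM in Ghezel, from 1 implied fragment in Zel 3 to 672 in Ghezel 2. Its neighbour R33 (chr20:26681275-26683585) gave 34.0, 29.5, 0 and 4.98 FPM in Zel and 35.8, 55.8 and 9.94 FPM in Ghezel. Both were low in the 3 libraries of the shortest rows and high in the other 4, and R32 had the widest fold change between the breeds, -2.78 with an SE of 1.59 (limma, adjusted p = 0.823).

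R62 (chr20:27239220-27251831, ENSOARG00000011147) had the same order, with 66.0, 33.1, 7.67 and 10.7 FPM in Zel and 118, 176 and 16.6 FPM in Ghezel. R64 (chr20:27350548-27352149) had the opposite order, with 106, 15.8, 241 and 124 FPM in Zel and 45.6, 23.8 and 121 FPM in Ghezel. In R7 (chr20:25352769-25356689, ENSOARG00000015485) the spread followed neither division. It gave 18.2, 67.7, 18.6 and 0.384 FPM in Zel and 7.55, 0 and 20.7 FPM in Ghezel, so that a library of each breed was near 0. R1 (chr20:25015205-25015535, ENSOARG00000023715), a row of 331 bases at the edge of the window, ran from 1.15 FPM in Zel 1 to 53.1 FPM in Ghezel 2.

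**Figure D4:**
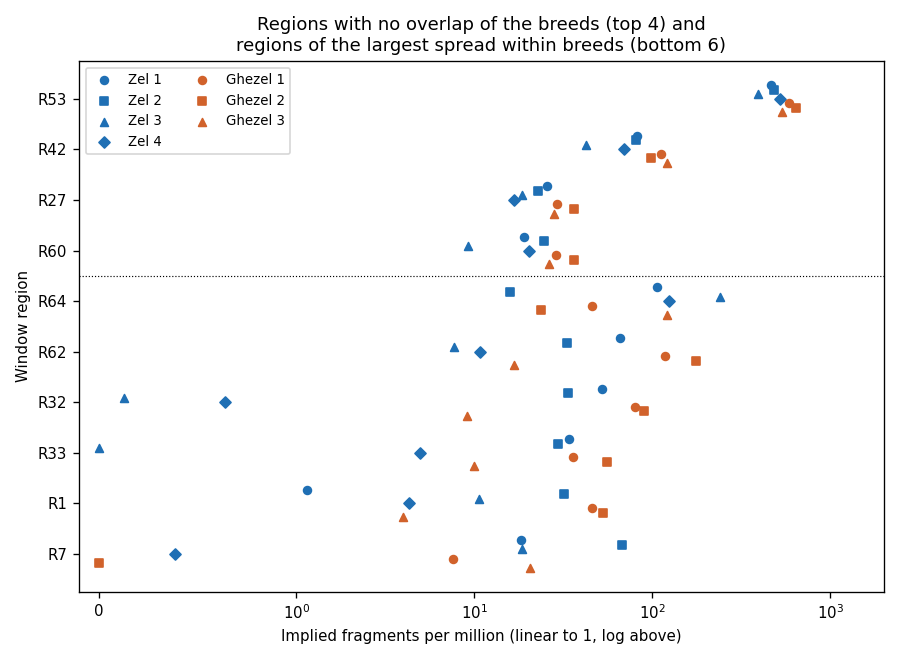
Level in FPM (axis linear up to 1 and logarithmic above) for the 4 regions whose breeds did not overlap (above the dotted line) and 6 regions of the largest spread within breeds (below it), 1 point per library, Zel in blue and Ghezel in orange. In R42 the Zel libraries end at 81.6 and the Ghezel libraries begin at 98.8, while R32 runs from 0.130 to 89.7.

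Many window regions divided the libraries by the span of their rows and not by breed. The 3 libraries of the shortest rows lay above the other 4 in 11 of the 64 regions and below them in 8, together 29.7%, beside 24.1% of all regions tested (12.3% above and 11.8% below) and 28.6% of the rest of chromosome 20. The share of the variance of log2 levels that this division held had a median of 29.8% over the window regions, and breed held 12.5%. The same medians were 28.7% and 12.6% over all regions and 35.1% and 8.89% in the rest of chromosome 20, so they are not particular to the window. The 3 libraries include 2 Zel and 1 Ghezel, so the divisions are not independent. The regions above included R14, R64, R48, R72 and R44, and those below included R32, R33, R62, R25, R80, R46 and R47. R48 (chr20:26811504-26852377, ENSOARG00000008259) gave 32.2, 19.5, 128 and 74.7 FPM in Zel and 27.5, 17.1 and 63.3 FPM in Ghezel. R47 (chr20:26796032-26809377, ENSOARG00000022153), which lies next to it, gave 218, 201 and 97.3 FPM in Zel 1 to Zel 3, 92.5 FPM in Zel 4 and 177, 183 and 137 FPM in Ghezel. The ID of R47 was at 0 wherever it was listed. The part of the assembly in these levels was not tested.

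Regions beyond 28 Mb were mostly low. R92 (chr20:28111213-28525467) was the longest region of the window and held 15 reference IDs, but gave 47.8 to 86.8 FPM in Zel and 38.8 to 73.8 FPM in Ghezel. R90 (chr20:28028860-28057594, ENSOARG00000016848) was one of the most even regions, at 67.6, 61.1, 76.6 and 69.1 FPM in Zel and 53.7, 55.2 and 67.1 FPM in Ghezel. Its ID was listed in Zel 3 alone, at 0. R129 (chr20:29564554-29570793, ENSOARG00000018053) gave 3.51, 1.64, 2.97 and 3.58 FPM in Zel and 1.04, 0.266 and 1.67 FPM in Ghezel. Zel 2 lay just below Ghezel 3, and the log2 fold change was 1.28 with an SE of 0.75 (limma, adjusted p = 0.823). At the far end, beyond R140, lay 17 regions with 15 short reference IDs of 321 to 611 bases. Each of these 15 IDs was above 0 in some library, but the 17 regions together gave 26.4 to 65.8 FPM and 2 of them were tested.

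No region of the window was present in every library of a breed and absent from the other breed. Over the whole series 18 of 24014 expressed regions were above 0 in all Zel and no Ghezel libraries and 49 the reverse. Such regions were so rare that their absence does not set the window apart. In the window, 14 regions (12.1% of the 116 expressed) had fragments only in Zel libraries and 7 (6.03%) only in Ghezel libraries, beside 16.9% and 8.96% of all expressed regions. Each of these had at most 32.7 implied fragments in a library, and 16 were seen in a single library. Those 16 were 13.8% of the 116 expressed window regions, against 20.5% in the rest of chromosome 20 and 20.4% over all regions. The level profiles of the 64 tested regions correlated between libraries with Pearson's r from 0.684 (Zel 3 and Ghezel 2) to 0.959 (Ghezel 1 and Ghezel 2), across regions that share their libraries.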

How the data were processed

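Polyadenylated RNA of tail fat was sequenced from 4 Zel and 3 Ghezel lambs, 1 library each. According to the study's methods, the authors trimmed paired-end reads with Trimmomatic, mapped them with TopHat, assembled transcripts with Cufflinks, merged them with Cuffmerge and quantified them with Cuffdiff. The labels' processing notes name FastQC, TopHat, Cuffdiff and Oar_v3.1, and the study's methods name a later genome release. No release of the annotation is stated in the labels or methods. Deposited was, by the authors, 1 gene table per library in FPKM, normalized for length and mapped fragments, with bounds of its confidence interval. Each table had its own rows, from 33662 in Ghezel 2 to 42839 in Zel 3, so the tables do not share 1 merged set of transcripts.

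A bound lies 2 SD from the FPKM, which implies a number of fragments as the square of 2 × FPKM over the distance from FPKM to the upper bound. Of those under 200, 34.2% to 37.7% per library were whole within 0.02, so they were not treated as read counts and limma was used in place of a count model. Failed rows (3 regions, none on chromosome 20) were left out of the tests. Overlapping rows were merged over the 7 tables with no regard to strand, so a region can hold several genes, and fragments were summed per region. The FPKM of a region was that of its row with the most fragments, scaled by its library's median ratio to geometric means.

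Levels were compared with limma 3.58.1 (R 4.3.3, trend) on log2(FPM + 0.5) and log2(FPKM + 1), for regions with a mean of at least 1, with Benjamini-Hochberg adjustment over all regions tested. Fold changes on these scales understate the change of low regions. Exact permutation tests ran over all 35 assignments of the 7 libraries to groups of 4 and 3, and sign-flip tests over 128 flips. Scripts were tested on simulated data. Floors cover counting error only, and whether the FPKM intervals hold more than counting error was not tested. Neither covers the spread between lambs.

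Named were the 15 window regions of the highest mean and the tested regions whose breeds did not overlap (up to 10 were allowed, and 4 were found). Regions outside this rule were chosen after their values were seen. A list of complex genes and the marker lists matched 0 rows. The members and lists were chosen with earlier results of these data known.

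Zel and Ghezel libraries of the same number are different lambs. Their deviations from the breed means correlated at 0.242, 0.260 and 0.339 for numbers 1 to 3, all over 0.1, so a replicate block was fitted as an alternative. Other pairs reached 0.361 (Zel 4 and Ghezel 3). Zel 4 has no partner and adds nothing to the blocked difference. Other alternatives were pseudocount, filter, scaling, table naming, library weights, row span, matched loci and libraries left out.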

Additional observations from a re-analysis of the deposited data

Results flagged for a closer look

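Of 32 groups of values checked, 2 held a library far from the others. The window's share of the fragments of chromosome 20 was 25.3% in Zel 3 and 30.2% to 31.0% in the other Zel libraries, and the gap was 0.854 of the range of the 4 values, above Dixon's critical value for 4 samples. Chance flags about 1 in 20 such groups. The region at chr20:7544309-7549025, outside the window, gave 3201 FPM in Zel 3, and the share of Zel 3 was 28.3% without it. With regions at 0 included, the median log2(FPM + 0.5) of the rest of chromosome 20 was -0.37 in Zel 2 and 0.79 to 0.95 in the other Zel libraries, a gap of 0.876 of the range, also above that critical value. Zel 2 was not alone among all libraries, since Ghezel 1 gave -0.38 and Ghezel 2 -0.66, while Ghezel 3 gave 0.93. Zel 2, Ghezel 1 and Ghezel 2 are the libraries of the F-prefixed tables.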

How the results depend on the processing

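By FPM, 0 window regions were called under 16 of 17 alternatives, and 14 with library weights, under which 3844 of all regions were called; by FPKM the count was 0 under all 18. With library weights R42 and R27 reached an adjusted p of 0.0207 and 0.0498 (limma), with log2 fold changes of -0.82 and -0.69, within 1.1. The replicate block left 0 called by both measures, gave differences of -1.67 percentage points (exact sign-flip test over 3 pairs, p = 0.75) for the share of chromosome 20 and 0.0222 for the share of all fragments, and changed no call in the window, while over all regions the FPKM calls went from 6 to 0. The median log2 fold change of the window by FPM was -0.22 over matched loci, where that of all loci was -0.38. By FPKM it was 0.26 over matched loci, and 0.31 without scaling, which moved the median of all regions from 0.08 to 0.36. Leaving out each library gave -0.14 to 0.19 by FPKM. The difference in the share of chromosome 20 turned to 0.0959 without the 3 libraries of the shortest rows, 9.51 with reference IDs only and 0.190 within the F-prefixed tables. That in the share of all fragments turned to -0.0197 within the T-suffixed tables. These within-naming values were added after seeing the data. The level of the window over the rest was 1.21 without the 3 libraries (exact sign-flip test, p = 0.125, the smallest it allows with 4 libraries) and 0.861 with reference IDs only (p = 0.0625), and turned to -0.18 over regions above 0 in some library and -0.95 with regions at 0 included. The cause was not tested for any of these. Naming and breed are only partly crossed, with 1 Zel library among the F-prefixed tables and 1 Ghezel library among the others. Depth limits the tests of regions near 1 FPM, which rest on few fragments.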
